A study of Caenorhabditis elegans with 9 samples.

Results

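The vulval fate and signalling genes of Caenorhabditis elegans are described here in L4 larvae of 3 strains. They are 32 genes taken by name: the epidermal growth factor (EGF) signal and its receptor, the Ras and MAP kinase cascade, Notch and Wnt components, the nuclear factors that set vulval cell fates, and genes used as markers of vulval cells. They are 32 of 17118 genes to which the array's annotation ties a probe set of their own. No measured value entered the rule that names them, but they were chosen with earlier results of these data known. The strains were the wild type, ogt-1(ok430), which has lost the O-GlcNAc transferase, and oga-1(ok1207), which has lost the O-GlcNAcase. O-GlcNAc is a single sugar on nuclear and cytosolic proteins, put on by OGT-1 and taken off by OGA-1. Each strain had 3 Affymetrix arrays, and each array held RNA of 20 fed larvae, picked by hand and chosen to be at the same stage of vulval development. The RNA was amplified once with T7 polymerase, and the labels call the 3 samples of a strain biological replicates. Both losses were present in every cell of the animal, and each mutant strain was represented by a single allele.

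The vulva is the egg-laying opening of the hermaphrodite and is a textbook case of cell fates set by signals. The anchor cell of the gonad releases the EGF-like protein LIN-3, which acts through the receptor LET-23, Ras and MAP kinase on precursor cells in the ventral skin. The cell that receives most signal sends a Notch signal to its neighbours, while Wnt signalling and the Hox protein LIN-39 keep the precursors able to respond. By the L4 stage the fates are set, and their descendants fold and fuse into the vulval tube. Few cells of the larva make up this tube, and most of the signalling genes are also used in other tissues. In RNA of whole larvae, fewer cells of a type and less RNA per cell cannot be told apart.

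Signals are log2 values, so a difference of 1 is a factor of 2, and a probe set is the group of short probes read as 1 value. The probe set with the highest mean over the 9 arrays stood for each gene. A gene is called higher or lower where the adjusted p of limma, a linear model with a spread shared across genes, was under 0.05 after Benjamini-Hochberg adjustment over all 22548 probe sets. Brightness of different probe sets is not a measure of which gene has more RNA. It does show how far a probe set stood above the dim end of the array: 17 of the 32 genes lay above the median probe set (5.27) and 15 at or below it. The Notch effector lag-1 (percentile 93.3) and lin-10 (93.3) were among the 7 genes in the top quartile. The Hox gene lin-39 (percentile 4.31) and the Wnt effector pop-1 (4.86) were the 2 dimmest.

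The loss of OGT-1 showed on the arrays. The brighter ogt-1 probe set read 7.96, 7.91 and 7.83 in the wild type, 6.97, 7.01 and 7.12 in ogt-1(ok430) and 7.85, 8.08 and 7.88 in oga-1(ok1207), a difference of -0.87 ± 0.0944 (SE) in the ogt-1 mutants (adjusted p = 8.87e-05). The 3 oga-1 probe sets were lower in oga-1(ok1207) by means of -0.25 to -0.32 without a call (adjusted p = 0.223 to 0.314). Where these probe sets lie relative to either deletion was not analysed here, so for oga-1(ok1207) the arrays give no strong check of the label. All 9 arrays had a mean of 5.91. Arrays ogt-1(ok430) 3 and oga-1(ok1207) 1 and 3 were wider than the rest, with an SD over probe sets above 1.8 against a lowest of 1.76. The spiked hybridisation controls read 9.11 ± 0.0904 in the wild type, 9.38 ± 0.117 in ogt-1 mutants and 9.14 ± 0.113 in oga-1 mutants (SD, n = 3), and their part in any difference was not tested.

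Few of the vulval genes were called in any comparison after the adjustment over all probe sets. In ogt-1 mutants 1 of the 32 was called higher, the PDZ-domain gene lin-10, and 1 was called lower, the cadherin gene cdh-3, which makes 6.25% of them called. Over all genes, 18.4% were called in that comparison, 8.65% higher and 9.72% lower. In oga-1 mutants 0 of the 32 were called by limma, against 0.269% of all genes. An unadjusted p under 0.05 was found there for 1 of the 32, against 2590 of 17118 genes. In ogt-1 mutants it was found for 4 of the 32, against 4953 genes, and between the mutants for 4, against 6012 genes. Between the mutants 1 of the 32 was called, lin-10 again, higher in ogt-1(ok430), which is 3.12%, against 25% of all genes (10.3% higher and 14.7% lower). Without the 3 wide arrays cdh-3 (-0.51, adjusted p = 0.044) and lin-10 (0.60, adjusted p = 0.00695) were still called in ogt-1 mutants. Both mutants were compared with the same 3 wild-type arrays, and each mutant's arrays enter 2 of the 3 comparisons, so the comparisons are not independent of each other.

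**Figure D1:**
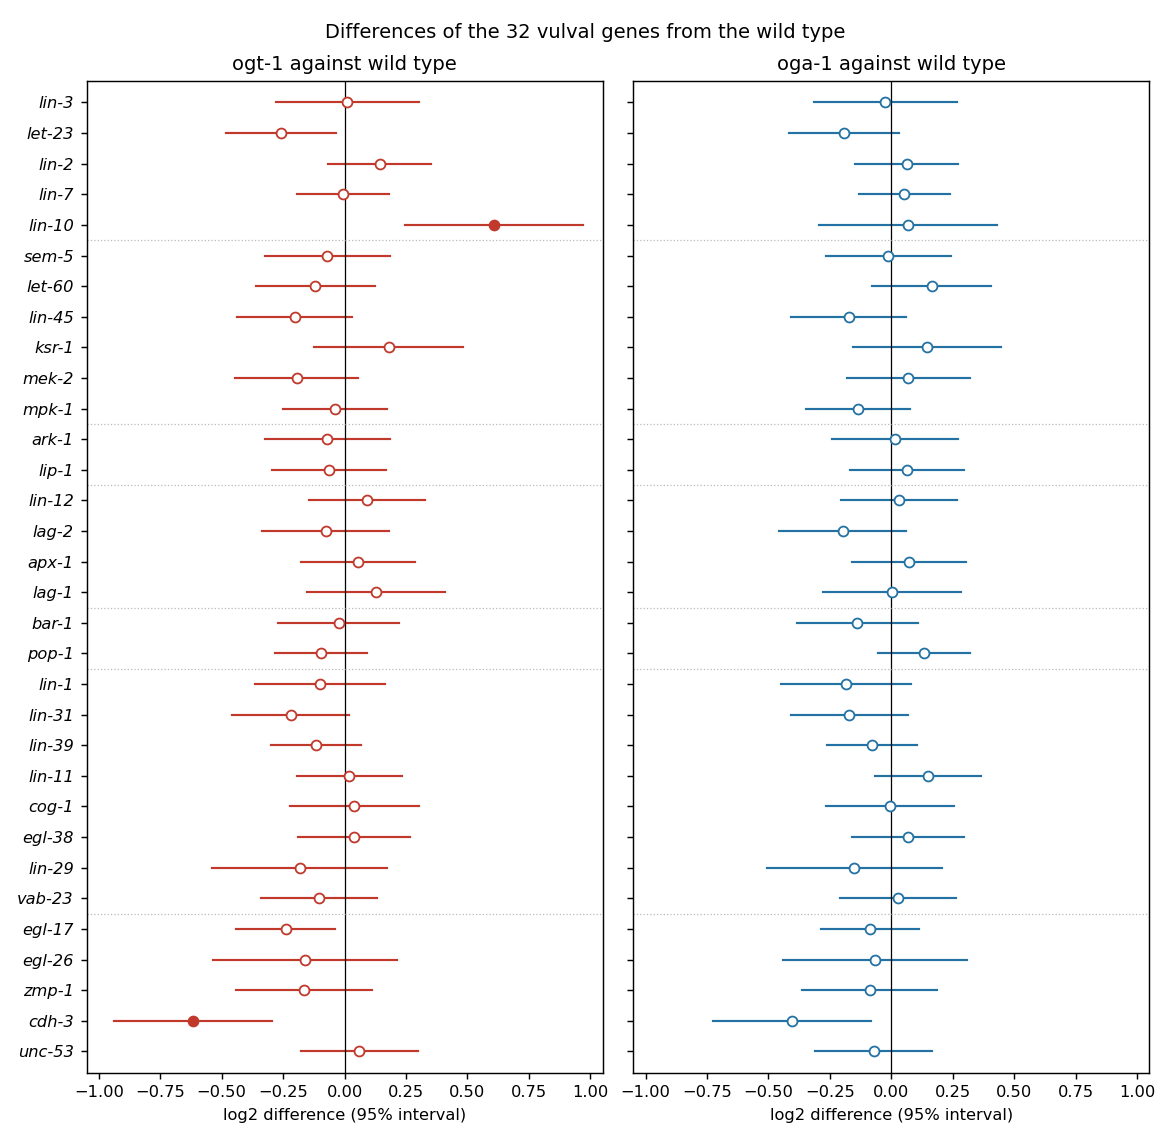
Difference of each vulval gene from the wild type on the log2 scale in ogt-1 mutants (left) and oga-1 mutants (right), with its 95% interval, from 3 arrays a strain; filled points are called at an adjusted p under 0.05 and dotted lines separate the roles. In ogt-1 mutants lin-10 lies at 0.61 and cdh-3 at -0.62, and the other 30 genes lie between -0.26 and 0.18.

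The 95% intervals bound differences of probe set signal, which for dim probe sets need not bound those of RNA. Each oga-1 probe set also had an interval within a 1.5-fold change in oga-1(ok1207), the strain that lost the O-GlcNAcase. For the 30 genes not called in ogt-1 mutants, each 95% interval stayed within a 1.5-fold change in either direction, with bounds from -0.54 to 0.48. In oga-1 mutants the same held for 31 of 32 genes, with bounds from -0.73 to 0.45; the exception was cdh-3. Between the mutants it held for all 31 genes not called. Genes not called were in part picked by a small difference. Over all genes, called or not, it held for 12952 of 17118 in ogt-1 mutants, 14999 in oga-1 mutants and 12160 between the mutants. At or below the median probe set it held in ogt-1 mutants for all 15 vulval genes and for 7778 of 8105 genes. The median size of the difference was 0.102 for the vulval genes and 0.132 for all genes in ogt-1 mutants, and 0.0752 against 0.114 in oga-1 mutants. The median signed difference of the 32 genes in ogt-1 mutants was -0.07, with 21 below 0 and 11 above, while that of all genes was -0.02.

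The counts can also be set out by signal level. Of the 17 vulval genes above the median probe set 2 (11.8%) were called in ogt-1 mutants, where 31.9% of all genes above it were called. Of the 15 genes at or below it 0 were called by limma, where 3.37% of all such genes were. An unadjusted p under 0.05 was found for 2 of the 15 and for 753 of all 8105 such genes. The spread between arrays of a strain was like that of other genes: the pooled SD had a median of 0.136 over the 32 genes and 0.139 over all genes. It ran from 0.0588 for lin-39 to 0.263 for egl-26.

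**Figure D2:**
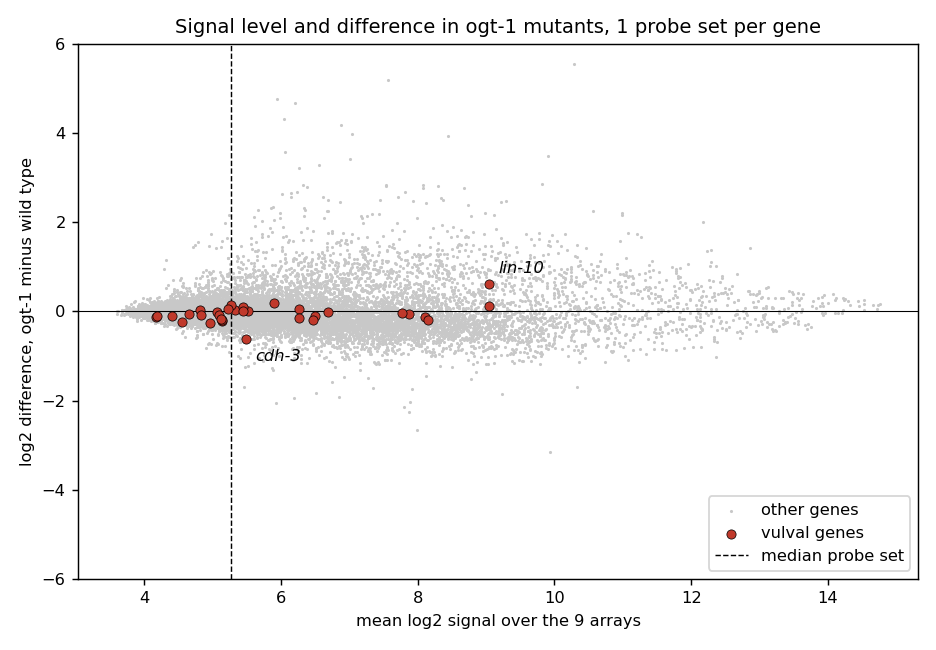
Mean log2 signal over the 9 arrays (horizontal) against the log2 difference of ogt-1 mutants from the wild type (vertical), 1 probe set per gene; grey points are the other genes and the dashed line marks the median probe set at 5.27. The 32 vulval genes, in red, lie close to 0 on both sides of the line except lin-10 (0.61) and cdh-3 (-0.62), while other genes reach 5.55.

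The first group by role is the EGF signal with its receptor and the proteins that place the receptor. The signal lin-3 (chromosome IV) read 5.44 ± 0.231 (SD, n = 3) in the wild type, 5.45 ± 0.0525 in ogt-1 mutants and 5.42 ± 0.219 in oga-1 mutants, so the 3 means lay within the spread of any group. The receptor gene let-23 (II) read 5.26, 5.10 and 4.97 in the wild type, 4.74, 4.98 and 4.84 in ogt-1 mutants and 4.89, 5.0 and 4.87 in oga-1 mutants. Wild-type arrays 1 and 2 were the highest of the 9, and the third overlapped with both mutants. Neither difference passed the test, at -0.26 ± 0.103 (SE; adjusted p = 0.12) and -0.19 ± 0.103 (adjusted p = 0.407).

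LIN-2, LIN-7 and LIN-10 are PDZ proteins of 1 complex, which holds LET-23 at the basolateral membrane of the precursor cells, where it meets LIN-3. Of the 3 genes, lin-10 (chromosome I) differed. Its brighter probe set read 8.86, 8.91 and 8.70 in the wild type, 9.38, 9.48 and 9.44 in ogt-1 mutants and 9.37, 8.70 and 8.60 in oga-1 mutants. The ogt-1 arrays lay above all others, closely packed, and oga-1 array 1 came up to just under them while the other oga-1 arrays stayed with the wild type. The difference in ogt-1 mutants was 0.61 ± 0.166 (SE), or 1.52-fold (adjusted p = 0.0248), and from oga-1 mutants it was 0.54 ± 0.166, or 1.45-fold (adjusted p = 0.0341). Between oga-1 mutants and the wild type it was 0.07 (adjusted p = 0.889). The call between the mutants was kept in 13 of 23 alternatives. It was lost without any 1 of the ogt-1 arrays and without oga-1 array 2 or 3 (0.39 to 0.56, adjusted p = 0.0631 to 0.135), and also with median centring (adjusted p = 0.0671), with only these 2 groups fitted (0.0545) and with the dimmer probe set (0.13, adjusted p = 0.389).

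The other lin-10 probe set showed little of this rise. It read 6.34, 6.19 and 6.30 in the wild type, 6.39, 6.50 and 6.29 in ogt-1 mutants and 6.38, 6.24 and 6.16 in oga-1 mutants, so all 3 groups overlapped. Its difference in ogt-1 mutants was 0.12 (adjusted p = 0.527). With both probe sets averaged lin-10 was not called, at 0.36 (adjusted p = 0.0569). The call also missed the threshold when any 1 of the wild-type arrays was left out, and likewise without the second or the third ogt-1 array, with differences of 0.55 to 0.65 and adjusted p of 0.0507 to 0.0808. Neither partner was called: lin-2 (X) differed by 0.14 in ogt-1 mutants (adjusted p = 0.411) and by 0.06 in oga-1 mutants, and lin-7 (II), which lay between 4.97 and 5.14 on all 9 arrays, by -0.01 and 0.05.

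The Ras and MAP kinase cascade carries the signal inward from LET-23, and 0 of its 6 genes were called by limma in any comparison. Over all genes 18.4% were called in ogt-1 mutants, 0.269% in oga-1 mutants and 25% between the mutants. Between the mutants 2 of the 6 had an unadjusted p under 0.05, as did 6012 of all 17118 genes. The adaptor sem-5, which couples the receptor to Ras, differed by -0.07 in ogt-1 mutants and -0.01 in oga-1 mutants. The Raf kinase gene lin-45 lay 0.20 below the wild type in ogt-1 mutants by its mean, at 8.07 ± 0.184 against 8.28 ± 0.12 (SD, n = 3; adjusted p = 0.262), and its dimmer probe set gave a like difference of -0.19. In oga-1 mutants the brighter lin-45 probe set differed by -0.17 and the dimmer by 0.00. The scaffold ksr-1, which brings Raf, MEK and MAP kinase together, differed by 0.18 and 0.15, neither called. The MAP kinase gene mpk-1 differed by -0.04 and by -0.13 (adjusted p = 0.548), the latter larger than the SD of the wild-type (0.0769) or oga-1 arrays (0.105). Its dimmer probe set gave -0.19 in ogt-1 mutants, with all ogt-1 arrays below the wild type (adjusted p = 0.316).

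By their brighter probe sets the Ras gene let-60 and the MEK gene mek-2 differed more between the mutants than from the wild type. These 2 are shown with every value because of that difference, after it was seen. For let-60 (IV) the arrays read 8.16, 8.04 and 8.06 in the wild type, 7.82, 7.90 and 8.17 in ogt-1 mutants and 8.21, 8.40 and 8.13 in oga-1 mutants. The third ogt-1 array overlapped with the oga-1 arrays, and the difference between the mutants of -0.28 ± 0.111 (SE) was not called (adjusted p = 0.0897). It was called without ogt-1 array 3. For mek-2 (I) the arrays read 5.09, 5.16 and 5.26 in the wild type, 5.09, 4.97 and 4.87 in ogt-1 mutants and 5.10, 5.48 and 5.14 in oga-1 mutants. Its ogt-1 arrays lay below both other groups without overlap, although the closest arrays nearly touched, and -0.26 ± 0.115 between the mutants was not called (adjusted p = 0.128). The second mek-2 probe set went the other way, by 0.19 (adjusted p = 0.267), while the dimmer let-60 probe set gave a smaller difference of the same sign, -0.06.

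Neither brake on the pathway was called. The tyrosine kinase gene ark-1, whose protein dampens signalling from LET-23, differed by -0.07 in ogt-1 mutants and 0.01 in oga-1 mutants. The MAP kinase phosphatase gene lip-1, a target of LIN-12 Notch in the precursors, differed by -0.06 and 0.06, and ranged from 4.51 to 4.89 over the 9 arrays.

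The Notch genes showed no call among 4, with 0 unadjusted p under 0.05 in the 3 limma comparisons. Over all genes 18.4% were called in ogt-1 mutants, 0.269% in oga-1 mutants and 25% between the mutants. In the same order 4953, 2590 and 6012 of 17118 genes had an unadjusted p under 0.05. The receptor gene lin-12 differed by 0.09 in ogt-1 mutants and 0.03 in oga-1 mutants. Of its ligands, lag-2 differed by -0.08 and -0.20 and apx-1 by 0.05 and 0.07. The gene of the DNA-binding partner of Notch, lag-1, read 9.0 ± 0.0826 in the wild type, 9.12 ± 0.226 in ogt-1 mutants and 9.0 ± 0.19 in oga-1 mutants (SD, n = 3). Its 2 probe sets parted in ogt-1 mutants: the brighter gave 0.13 (adjusted p = 0.623) and the dimmer, with all ogt-1 arrays below the wild type, -0.31 (adjusted p = 0.0803).

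Of the Wnt genes, the beta-catenin gene bar-1 differed by -0.02 in ogt-1 mutants and -0.14 in oga-1 mutants. The TCF gene pop-1 (I), whose protein binds DNA at Wnt targets, kept the 3 groups apart by small differences, and its values are shown for that reason, after they were seen. It read 4.18, 4.16 and 4.19 in the wild type, 3.97, 4.13 and 4.14 in ogt-1 mutants and 4.32, 4.35 and 4.25 in oga-1 mutants. All ogt-1 arrays lay below the wild type and all oga-1 arrays above it. The differences were -0.10 ± 0.0858 (SE; adjusted p = 0.553) and 0.13 ± 0.0858 (adjusted p = 0.503), and the mutants differed from each other by -0.23 (adjusted p = 0.0743), so none was called. The difference between the mutants was called with quantile normalization, with median centring, with an intensity trend and robust variance, and at an adjusted p under 0.1. It was not called with array weights, a replicate block, arrays scaled to equal spread or any 1 array left out. The pop-1 probe set is at percentile 4.86, near the dim end of the array.

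**Figure D3:**
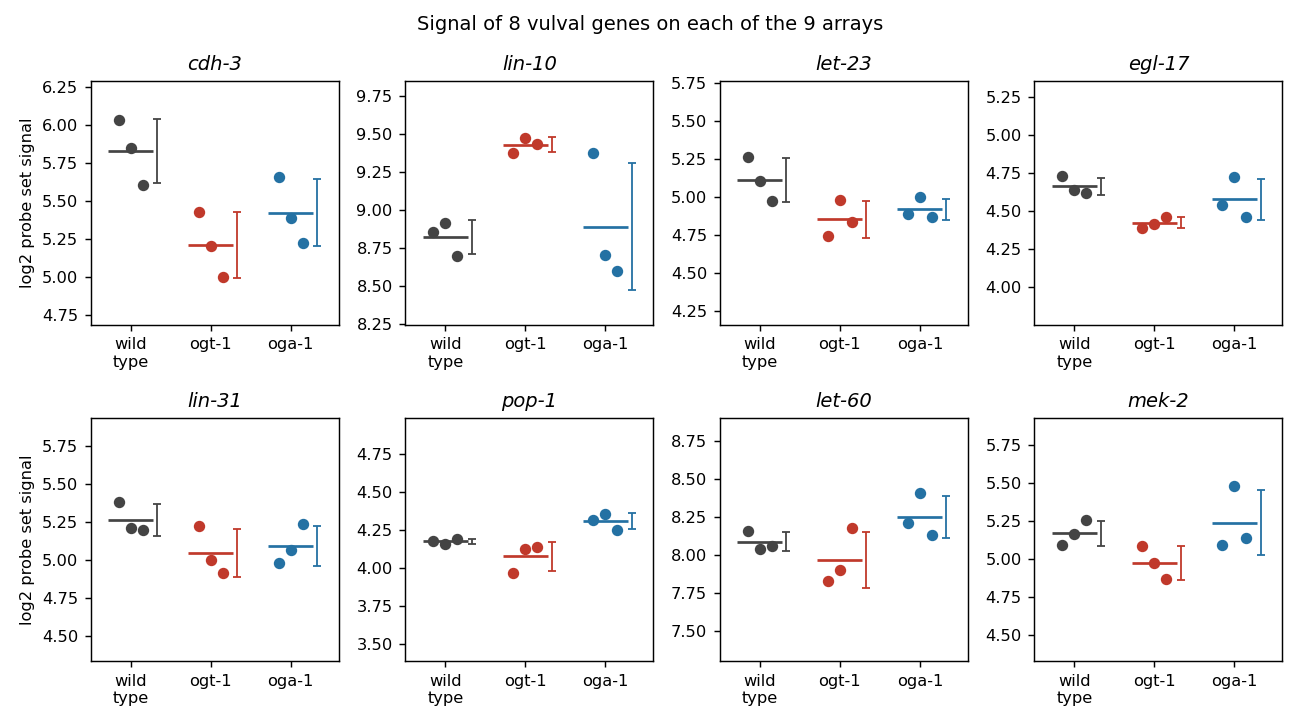
Log2 signal of 8 vulval genes on each of the 9 arrays; points are arrays, the line is the mean of the 3 arrays of a strain, the bar beside it is ±1 SD, and every panel spans the same height on the log2 scale from its own base. The ogt-1 arrays of lin-10 (9.38 to 9.48) lie above all others and those of cdh-3 (5.0 to 5.43) below the wild type (5.61 to 6.03); let-23, lin-31 and let-60 overlap.

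The 8 nuclear factors that read these signals gave 0 calls by limma and 0 unadjusted p under 0.05. Over all genes 18.4% were called in ogt-1 mutants, 0.269% in oga-1 mutants and 25% between the mutants. An unadjusted p under 0.05 was found for 4953, 2590 and 6012 of 17118 genes in the same order. LIN-1, an ETS protein, and LIN-31, a winged-helix protein, are targets of MAP kinase that hold back the vulval fate until the signal arrives. The gene lin-1 differed by -0.10 in ogt-1 mutants and -0.18 in oga-1 mutants. The gene lin-31 (II) read 5.38, 5.21 and 5.20 in the wild type, 5.22, 5.0 and 4.91 in ogt-1 mutants and 4.98, 5.06 and 5.24 in oga-1 mutants. Each mutant overlapped with the wild type in 1 array, and -0.22 ± 0.109 (SE; adjusted p = 0.227) and -0.17 ± 0.109 (adjusted p = 0.498) were not called. The other lin-31 probe set gave -0.05 and 0.02.

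Among the homeobox and Pax genes, lin-39, which keeps precursors competent, differed by -0.12 in ogt-1 mutants with all 3 arrays below the wild type (adjusted p = 0.448), and by -0.08 in oga-1 mutants. The LIM homeobox gene lin-11, needed in the secondary lineage, differed by 0.02 and 0.15. The homeobox gene cog-1, which works in the vulva and the uterus, differed by 0.04 and -0.01, and the Pax gene egl-38 by 0.04 and 0.07. Of the zinc-finger genes, lin-29, a late heterochronic gene that is also needed for the link between vulva and uterus, differed by -0.18 and -0.15, and had 1 of the widest spreads, with a pooled SD of 0.248. The gene vab-23, which acts in the shaping of the vulva, differed by -0.10 and 0.03.

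The last group holds 5 genes that mark or shape vulval cells, and here the largest fall among the 32 was found. The Fat-like cadherin gene cdh-3 (III), active in the anchor cell and in vulval cells, read 6.03, 5.85 and 5.61 in the wild type, 5.43, 5.20 and 5.0 in ogt-1 mutants and 5.66, 5.39 and 5.22 in oga-1 mutants. Every ogt-1 array lay below every wild-type array, and the oga-1 arrays lay between, with 1 of them above the lowest wild-type array. Within each strain the value fell from array 1 to array 3, and this shared order is part of the unpaired SE of cdh-3. The labels do not say that equal numbers pair arrays. With a replicate block 0 of the 32 genes were called by limma in oga-1 mutants. In ogt-1 mutants cdh-3 fell by 0.62 on the log2 scale ± 0.147 (SE), a 1.54-fold change (adjusted p = 0.012). In oga-1 mutants the difference was -0.40 ± 0.147 (adjusted p = 0.237), with a 95% interval from -0.73 to -0.08, and the mutants differed from each other by -0.21 (adjusted p = 0.354). So the difference between the mutants, tested itself, was not resolved. Leaving out wild-type array 1 gave -0.52 (adjusted p = 0.0552) and leaving out ogt-1 array 3 gave -0.51 (adjusted p = 0.0512) in ogt-1 mutants. Only 1 probe set named cdh-3, at percentile 56.2, near the middle of the array. It is of the kind whose probes can match several transcripts, as are those of 8 of the 32 genes.

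The FGF-like gene egl-17 (X), a marker of the primary and later of the secondary lineage, read 4.73, 4.64 and 4.62 in the wild type, 4.39, 4.41 and 4.46 in ogt-1 mutants and 4.54, 4.72 and 4.46 in oga-1 mutants. The ogt-1 arrays lay below the wild type without overlap, at percentile 18 of the array, and -0.24 ± 0.0922 (SE) missed the threshold (adjusted p = 0.104). It was called when arrays were weighted by their quality. The oga-1 difference was -0.09. The matrix metalloprotease gene zmp-1 differed by -0.16 and -0.09, and egl-26, needed to shape a single vulval cell, by -0.16 and -0.07 with the widest spread of the 32. The gene unc-53, which acts in cell migration and outgrowth, differed by 0.06 and -0.07.

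The arrays were also counted without a model, by whether the groups overlap. In ogt-1 mutants lin-10 lay wholly above the wild type (1 of 32; 14.7% of all genes did) and cdh-3, egl-17, lin-39, mek-2 and pop-1 wholly below (5 of 32; 19% of all genes). In oga-1 mutants pop-1 lay wholly above (9.55% of all genes did) and 0 of the 32 wholly below (11.4%). Between the mutants, lin-10 was wholly above in ogt-1(ok430) (17.1% of all genes) and egl-17, lin-11, mek-2 and pop-1 were wholly below (19.5%). By array, wild-type array 1 held the highest value of 8 of the 32 genes, more than any other array, and ogt-1 array 1 the lowest of 7.

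A gene with 2 probe sets offers a repeat of its own measurement, though on the same RNA. Of the 14 vulval genes with 2, the probe sets had the same sign in 9 in ogt-1 mutants, in 6 in oga-1 mutants and in 8 between the mutants. The largest gap between them was 0.49, for lin-10. By limma, 0 of the 14 dimmer probe sets were called in any comparison. Of all probe sets 17.3% were called in ogt-1 mutants, 0.257% in oga-1 mutants and 23.9% between the mutants.

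Other genes of the same pathways, from lists without the 32, were counted in the same way beside the 18.4% of all genes called. Of all genes above the median probe set 31.9% were called, and of those at or below it 3.37%. The lists were not split by signal level, so their shares were not set against genes of like brightness. Of 24 other EGF and Ras genes 1 was called higher and 5 lower (25%), with a median difference of -0.16. The lower ones included rom-1, whose rhomboid protease helps release LIN-3, by -0.53 (adjusted p = 0.00211). They also included sur-5 by -0.72 (adjusted p = 0.0049) and let-92, a catalytic subunit of phosphatase PP2A, by -0.47 (adjusted p = 0.0204). The clathrin adaptor gene unc-101, a negative regulator of LET-23 signalling, was higher by 0.37 (adjusted p = 0.0139). The second probe sets of let-92 (0.01) and unc-101 (0.02) did not show these differences. The count of 6 ran from 3 to 6 with 1 array left out, and was 3 without wild-type array 2 or ogt-1 array 2.

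Of 24 other Notch genes 2 were called higher and 2 lower (16.7%). The higher ones were pen-2, a subunit of gamma-secretase, the protease that cleaves Notch, by 0.90 (adjusted p = 0.000727), and lst-1, a gene named as a target of lateral signalling, by 0.44 (adjusted p = 0.0154). The cargo-receptor gene sel-9 was lower by -0.60 (adjusted p = 0.00296) and dpy-23, a subunit of the endocytic adaptor AP2, by -0.37 (adjusted p = 0.0178). The second dpy-23 probe set gave -0.11 and no call. With 1 array left out the Notch count of 4 ran from 3 to 4, and the calls of lst-1 and dpy-23 were each lost without any of 3 single arrays. Of 27 other Wnt genes 0 were called higher by limma and 4 lower (14.8%). Among these were the Frizzled receptor gene mom-5 by -0.75 (adjusted p = 0.000946), the Wnt-export gene mig-14 by -0.37 (adjusted p = 0.0229) and the Wnt ligand gene cwn-1 by -0.33 (adjusted p = 0.0288). The other mom-5 probe set gave 0.07. The calls of mig-14 and cwn-1 were each lost without any of 4 single arrays, and the Wnt count of 4 ran from 1 without wild-type array 2, through 2 without ogt-1 array 1 or 2, to 7 without oga-1 array 1.

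The synthetic multivulva genes encode chromatin and transcription proteins that keep lin-3 off in the skin. Over all genes 18.4% were called in ogt-1 mutants, and 31.9% of those above the median probe set. Of 25 synthetic multivulva genes 1 was called higher and 7 lower in ogt-1 mutants (32%), with a median of -0.21. That count of 8 ran from 5, without ogt-1 array 2, to 10 with 1 array left out, and from 4 to 14 over the other alternatives. The DNA-binding gene lin-54 was lower by -0.73 (adjusted p = 0.00247), lin-15A by -0.61 (adjusted p = 0.00262) and trr-1, of a histone acetyltransferase complex, by -0.50 (adjusted p = 0.00325). The histone-binding gene lin-53 was higher by 0.67 (adjusted p = 0.00132). The signal lin-3 itself differed by 0.01, as given above. The differences in oga-1 mutants were 0.12 for lin-54 (adjusted p = 0.714) and -0.62 for lin-15A (adjusted p = 0.0512).

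Of 29 other vulval fate and morphogenesis genes 1 was called higher and 4 lower (17.2%) in ogt-1 mutants. The Pbx-type partner of Hox proteins, ceh-20, read 7.90, 7.64 and 7.81 in the wild type, 6.54, 6.70 and 6.62 in ogt-1 mutants and 7.37, 6.79 and 7.04 in oga-1 mutants. Its ogt-1 difference was -1.16 ± 0.135 (SE; adjusted p = 0.000137), with a second probe set at -0.38, and its oga-1 difference was -0.72 (adjusted p = 0.0585). The septin gene unc-59 was lower by -0.68 (adjusted p = 0.0053) and the Rac gene ced-10 by -0.42 (adjusted p = 0.0219), the latter with a second probe set at 0.07. The anchor-cell transcription factor gene fos-1 was higher by 1.06 (adjusted p = 0.00167), with a second probe set at 0.01. Of 15 heterochronic genes, which time larval development, 0 were called higher by limma and 1 lower, the Argonaute gene alg-2 by -0.34 (adjusted p = 0.0383), with a second probe set at 0.24. The alg-2 call was kept in 13 of 23 alternatives and lost without any 1 of the wild-type arrays or without ogt-1 array 1 or 2. With 1 array left out the count of other vulval genes ran from 3 to 5 (3 when ogt-1 array 2 was dropped, and also when wild-type array 1 or wild-type array 2 was), and the heterochronic count from 0 to 2.

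**Figure D4:**
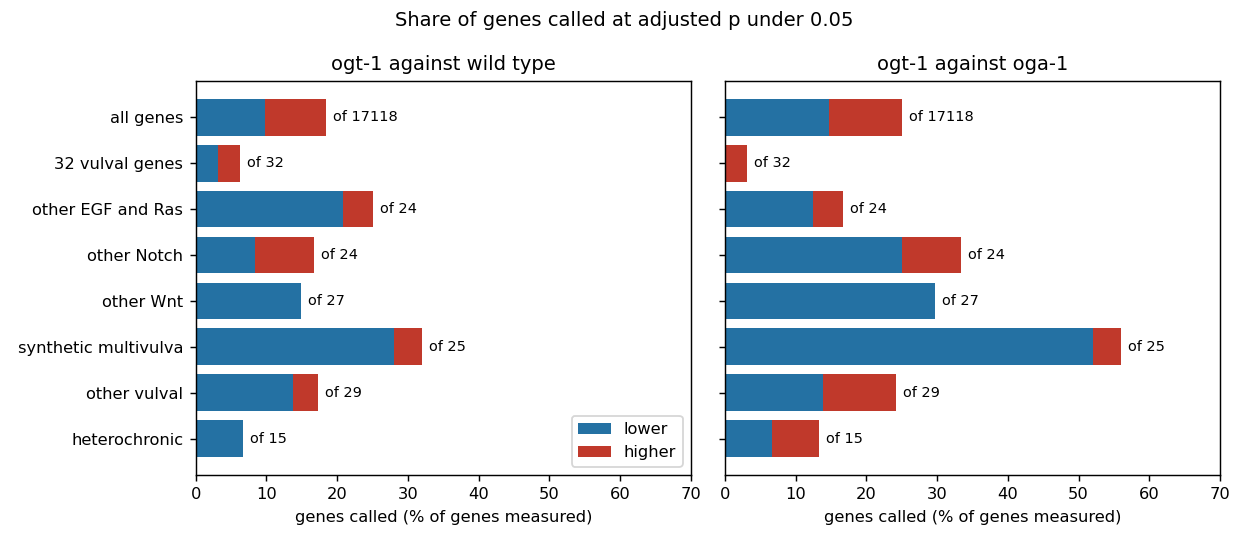
Share of genes called lower (blue) and higher (red) at an adjusted p under 0.05, as a percentage of the genes measured in each list, for ogt-1 mutants against the wild type (left) and against oga-1 mutants (right); the number of genes follows each bar. The 32 vulval genes stand at 6.25% and 3.12%, all genes at 18.4% and 25%, and the synthetic multivulva genes at 32% and 56%. Of all genes above the median probe set, which are not drawn apart, 31.9% and 41.7% were called.

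In oga-1 mutants 0 genes of these 6 lists were called by limma, where 0.269% of all genes were. Between 1 and 7 genes of each list had an unadjusted p under 0.05 there. Over all genes 2590 of 17118 had such a p in oga-1 mutants. Between the mutants 25% of all genes were called, and 41.7% of those above the median probe set. Of the 4283 genes called over the whole array 2523 were lower in ogt-1(ok430). In the lists it was 3 of 4 for the EGF and Ras list, 6 of 8 for Notch, 8 of 8 for Wnt, 13 of 14 for the synthetic multivulva genes, 4 of 7 for the other vulval genes and 1 of 2 for the heterochronic ones. By smallest p the lower genes of these lists were led by sur-5 (-0.99), mom-5 (-0.83), unc-59 (-0.93), lin-54 (-0.86), sel-9 (-0.64) and alg-2 (-0.51). Those higher in ogt-1(ok430) were led by fos-1 (1.01), pen-2 (0.82), unc-101 (0.42), dre-1 (0.41) and lin-53 (0.39). The second probe sets of mom-5 (0.28) and alg-2 (0.05) had the other sign. With the dimmer probe set fos-1 gave 0.10, unc-101 0.18, dre-1 0.28 and lin-53 0.30, none of them called. With 1 array left out the 6 counts ran from 3 to 6, 3 to 8, 5 to 9, 5 to 14, 3 to 7 and 2 to 2 in the order above. Without ogt-1 array 2 the Notch, Wnt, synthetic multivulva and other vulval counts were 3, 5, 5 and 3; without oga-1 array 1 the Notch and synthetic multivulva counts were 3 and 8, and without oga-1 array 3 they were 5 and 8. Without ogt-1 array 1 the Notch count was 4. Without the 3 wide arrays, which leaves 1 oga-1 array that is assumed to vary like the others, the counts of calls between the mutants fell to 1, 1, 3, 2, 2 and 1 in the same order, while in ogt-1 mutants against the wild type the synthetic multivulva count was 12.

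Markers of some other cells of the larva were also called in ogt-1 mutants, where 8.65% of all genes were called higher and 9.72% lower. Of all genes above the median probe set 31.9% were called. By limma, 0 of 7 hypodermis markers, 0 of 6 neuron markers and 0 of 2 seam markers were called in either mutant against the wild type. Germline markers had mean signals of 9.06 to 9.16 on the wild-type arrays, 8.50 to 8.86 on the ogt-1 arrays and 9.06 to 9.24 on the oga-1 arrays, with 3 of 6 called lower in ogt-1 mutants. Oocyte markers read 10.4 to 10.5, 9.85 to 10.1 and 10.6 to 10.8, with 4 of 6 called lower. Of the markers of adult cuticle and yolk 3 of 6 were called lower in ogt-1 mutants, the yolk genes vit-1, vit-4 and vit-5. By mean signal over the 9 arrays all 6 lay in the top quartile, as did all 6 oocyte markers. The cuticle gene col-19 differed by 0.06 and was not called by limma (adjusted p = 0.763). Of the 10 molting genes 0 were called by limma, and 0 lay in the top quartile. Other markers were called higher in ogt-1 mutants. Of the sperm markers 2 of 7 were, with means of 10.3 to 10.9 on the wild-type arrays, 10.90 to 10.96 on the ogt-1 arrays and 10.5 to 10.8 on the oga-1 arrays. Of the pharynx markers 2 of 5 were, the muscle genes tnc-2 (2.49) and myo-2 (0.38), with means of 5.64 to 5.80, 6.32 to 6.46 and 5.65 to 5.82. The other pharynx markers, myo-1 (0.45), pha-4 (-0.09) and ceh-22 (0.04), were not called, and tnc-2 had by far the largest difference of the 5. Of the intestine markers 1 of 4 was, ges-1 (0.68), and of those of body wall muscle 1 of 5, pat-10 (0.45). Markers of the anchor cell and uterus, some of them among the 32, read 5.66 to 5.73, 5.68 to 5.80 and 5.50 to 5.66 and held 1 call each way, fos-1 and cdh-3. All 3 markers of vulval and uterine muscle lay at or below the median probe set. The part of these cells in the differences above was not tested, nor was that of any difference in stage between the strains.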

How the data were processed

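The deposited table holds log2 values per probe set for 9 arrays, made by the authors; per the submitters' processing notes MAS5, RMA and Partek were used, with no role given. The values were taken as deposited. Control probe sets (77 of 22625) were left out. Names came from the platform annotation, and RefSeq's gene table for WBcel235 gave current names and chromosomes; 887 probe sets naming several genes and 895 naming none stood for no gene. limma 3.58.1 in R 4.3.3 (lmFit, eBayes) was fitted to all 9 arrays with strain as the only term (6 residual degrees of freedom); tests are two-sided, and the fit was tested on simulated data. The number of arrays limits the precision, and each p-value sets a difference against the spread between these samples. The members and lists were chosen with earlier results of these data known. All 32 members are named; those called, and the 3 with the largest difference not called, have every value printed. Pathway lists name up to 3 called genes a direction and comparison, by smallest p. Same-numbered arrays deviated together with correlations of -0.173 to 0.244, so numbers were not taken as pairs. Alternatives were normalization, filter, variance model, threshold, probe set, arrays left out and a replicate block; 3 more (without the 3 wide arrays, their spread as a covariate, equal spread) were chosen after seeing the data. Sequences and promoter motifs were not analysed here.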

Additional observations from a re-analysis of the deposited data

How the results depend on the processing

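The count of vulval genes called in oga-1 mutants was 0 under every alternative run. In ogt-1 mutants it was 2, became 1 with the probe sets of a gene averaged and 1 with the lowest-mean probe set, was 3 with array weights, and ran from 0 to 2 with 1 array left out; it was 0 without wild-type array 1 and without ogt-1 array 3. Between the mutants it was 1 and became 3 with quantile normalization (adding mek-2 and pop-1), 2 with an intensity trend and robust variance, 2 without the 3 wide arrays, 2 with array spread as a covariate, 3 at an adjusted p under 0.1, and 0 with only the 2 groups fitted, at 1.5-fold, with averaged probe sets or with the lowest-mean probe set; with 1 array left out it ran from 0 to 1, and with median centring the 1 call was pop-1, lower, in place of lin-10. A replicate block gave counts of 2, 0 and 1, as without it. The cdh-3 call was kept in 21 of 23 alternatives, the lin-10 call against the wild type in 16 and against oga-1 mutants in 13. The alternatives are not independent, and an adjusted p under 0.1 could not lose a call. For cdh-3, with a single probe set, the choice of probe set left the values the same. Leaving out an oga-1 array left each difference of ogt-1 mutants from the wild type unchanged. Both losses of cdh-3 came from leaving out an array of its own comparison.

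Over all probe sets the count in ogt-1 mutants, 3891, became 2052 at 1.5-fold and ran from 2710 to 4149 with 1 array left out. Between the mutants 5381 became 2664 at 1.5-fold and 2544 without the 3 wide arrays, and ran from 3827 to 5581. In oga-1 mutants 58 (43 higher, 15 lower) became 91 (50 and 41) with quantile normalization, 94 with the trend, 848 with array weights, 198 at 0.1, 3 without the wide arrays and 13 with the covariate, and ran from 9 to 89. With the lowest-mean probe set the sign turned in ogt-1 mutants for let-92 (0.0061), mom-5 (0.066), egl-18 (0.0893), ced-10 (0.0743) and alg-2 (0.24), and between the mutants for mom-5 (0.28), egl-18 (0.0891), cki-1 (-0.0029), ceh-20 (0.0116) and alg-2 (0.0544). The cause of these changes was not tested; dim probe sets limit what can be seen.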
